A study of Caenorhabditis elegans with 15 samples.

Results

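The col genes of Caenorhabditis elegans encode most of the collagens of its cuticle, and they were followed here across animals that overexpress the phosphatase ACP7 in the intestine. Members were all protein-coding genes whose RefSeq symbol is col- followed by a number, matched to the locus tag in the deposited table. The form was carried by 159 genes, of which 3 are annotated as pseudogenes and were left out, giving 156 members among the 46929 genes of the table. All 156 had at least 1 count in some library, and 119 passed the filter on low counts. The 37 that did not pass averaged at most 0.201 CPM (counts scaled to a common library size of 1000000) over the 15 libraries, and their differences were not tested.

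The cuticle is a layered extracellular matrix that the epidermis secretes and replaces at each molt. Its collagens are short proteins built around Gly-X-Y repeats that wind into triple helices. They are hydroxylated on proline in the endoplasmic reticulum, trimmed by proteases on their way out, and joined by tyrosine cross-links outside the cell. Separate sets of collagens are made in waves around molts and at separate stages, and several are known to decline in aging adults.

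The wild-type group is the laboratory strain N2. The ACP7 OE group carries F21A3.11, the gene of the secreted phosphatase ACP7, behind the intestinal promoter of ges-1, followed by a trans-spliced WormScarlet reporter and the unc-54 3′ untranslated region. The ACP7-7A OE group carries the same construct with the phosphatase-inactive form. Each construct is represented by a single strain (ABR275 and ABR484), each library was made from poly(A) RNA of about 1000 whole worms, and the labels give neither age nor stage. Each group has 5 libraries, and nothing in the labels says that they came from separate cultures, so p-values measure the spread between these libraries. Because whole worms were sampled, fewer epidermal cells and less collagen RNA per cell cannot be told apart.

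Library totals ran from 39050495 to 58077047 counts. F21A3.11 stood at 13 to 16.6 CPM in the wild-type libraries, 576 to 645 CPM in the ACP7 OE libraries and 1072 to 1549 CPM in the ACP7-7A OE libraries and was thus higher in both overexpression groups, as labelled. Some libraries stood apart from their own group before any comparison. The summed level of the members was 14230 and 15548 CPM in ACP7-7A OE libraries 1 and 2, against 24925, 26144 and 25945 CPM in libraries 3 to 5. In wild type it was 25338, 25654, 27907, 24442 and 18267 CPM in libraries 1 to 5, with library 5 the lowest. In ACP7 OE it was 22843, 19917, 20027, 22129 and 21902 CPM. The groups overlapped, and the means were 24322 ± 3617, 21363 ± 1318 and 21359 ± 5942 CPM (SD, n = 5 each). Members took 1.39% to 2.79% of all counts in a library.

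**Figure D1:**
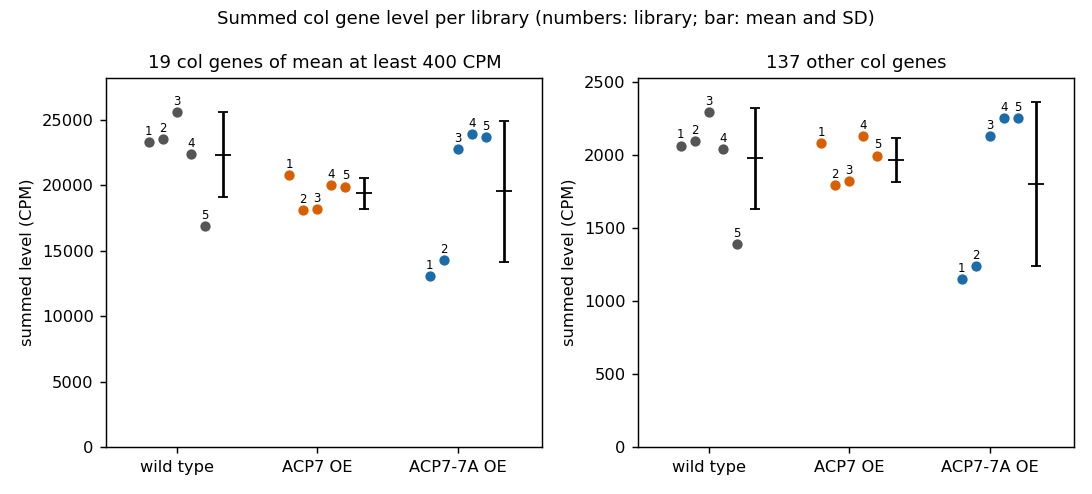
Summed level (CPM, linear axis from 0) in each library of the 19 members with a mean of at least 400 CPM (left) and of the 137 others (right), with library numbers and, beside each group, the mean and SD of 5 libraries. Both sums are lowest in ACP7-7A OE libraries 1 and 2 and next lowest in wild-type library 5.

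A small set of members carried most of the signal. Those averaging at least 400 CPM numbered 19 and held 91.4% of the summed level, 78 members averaged between 1 and 400 CPM, and 59 averaged under 1 CPM. The median of the mean level over all 156 members was 2.29 CPM. Per length, the highest was col-119 (chromosome IV, 8978926 to 8979795, minus strand, WBcel235) at 2262 CPM per kilobase. Next came col-140, col-122, col-20, col-181, col-124, col-106, col-8, col-19 and col-178, at 1678, 1637, 1495, 1455, 1370, 1189, 1102, 1084 and 968 CPM per kilobase. Over the 15 libraries col-119 ranged from 1309 to 2523 CPM and col-140 from 1027 to 1929 CPM, ranges that overlap, and no test of the order was made.

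col-119 had 2117, 2210, 2523, 2126 and 1709 CPM in the wild-type libraries, 2016, 1799, 1850, 2012 and 2049 CPM in the ACP7 OE libraries, and 1309, 1476, 2029, 2118 and 2174 CPM in the ACP7-7A OE libraries. The groups overlapped, and ACP7-7A OE libraries 1 and 2 were the lowest. col-19, an adult collagen that is the standard readout of the heterochronic factor LIN-29 (chromosome X, 421707 to 422691, plus strand), had 1208, 1201, 1333, 1192 and 807 CPM in the wild-type libraries and 1067, 922, 937, 1011 and 1006 CPM in the ACP7 OE libraries. In ACP7-7A OE it had 501, 531, 1097, 1176 and 1161 CPM. Its differences from wild type did not pass in ACP7 OE (log2 change -0.22, SE 0.24, edgeR adjusted p = 0.72) or in ACP7-7A OE (-0.36, SE 0.24, adjusted p = 0.40).

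Other members with a known role lay far lower. col-7, another adult collagen, averaged 4.34 CPM over the 15 libraries, with 0.642 CPM in ACP7-7A OE library 2 as its lowest value and 8.18 CPM in ACP7 OE library 4 as its highest. col-2, known for expression in the dauer larva, had between 0 and 0.407 CPM and did not separate the groups. col-10, col-13 and col-120, whose overexpression is reported to lengthen life in this animal, averaged 8.06, 3.62 and 1.98 CPM. col-120 ranged from 0.123 CPM in wild-type library 5 to 4.67 CPM in ACP7-7A OE library 4, and neither construct's difference from wild type passed (adjusted p = 0.54 and 0.40, edgeR). col-144, which lies 1349 bp from its nearest member on the same strand, was among the steadiest, at 13.2 ± 2.20 CPM in the wild-type libraries, 13.4 ± 1.28 CPM in the ACP7 OE libraries and 12.3 ± 1.34 CPM in the ACP7-7A OE libraries (SD, n = 5 each).

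col-41, col-141 and col-142 are targets of the body-size signal DBL-1, a BMP ligand. They averaged 0.169, 2.53 and 168 CPM, and col-41 did not pass the filter. col-141 and col-142 are neighbours, 437 bp apart on chromosome V, and their levels did not overlap in any library. The exons of col-142 overlap those of T15B7.14 on the other strand. Both were lowest in ACP7-7A OE libraries 1 and 2, where col-142 had 67.2 and 59.5 CPM against 202 to 220 CPM in libraries 3 to 5 and 129 to 225 CPM in the wild-type libraries. col-99, a collagen with a membrane-spanning segment and so not a typical cuticle collagen, had 13.1 ± 1.48 CPM in the wild-type libraries, 10.3 ± 1.40 CPM in the ACP7 OE libraries and 11.4 ± 1.20 CPM in the ACP7-7A OE libraries. Its difference between ACP7 OE and wild type did not pass (log2 change -0.35, SE 0.12, edgeR adjusted p = 0.12), and its exons overlap those of daf-1 on the other strand.

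In structure and position the members were alike in length and scattered in the genome. The longest coding sequence of each had 154 to 740 codons with a median of 304, and 143 of 156 lay between 250 and 400. col-99, at 735 codons, was next in length to the longest, col-163 at 740. Chromosome IV held 41 members, V 31, X 27, II 24, I 21 and III 12. With no other protein-coding gene between them, 45 members stood in runs of 2 to 5. Levels within a run could differ widely, though not in every run, as col-7 and col-62 on chromosome I averaged 4.34 and 3.63 CPM. On chromosome II, col-17, col-20 and col-73 follow each other on the minus strand between 4866723 and 4873129 and averaged 1.33, 1486 and 6.98 CPM. On chromosome III, col-92, col-93 and col-94 averaged 26.2, 846 and 33.1 CPM. The run of 5 on the X chromosome, col-167 to col-171, averaged 6.64, 1.46, 1.09, 0.769 and 0.00135 CPM. Their exons overlap no other counted gene, and whether they share reads through similar sequence was not tested.

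At the median, spread between libraries of one group was larger for col genes than for all genes, above all in ACP7-7A OE. Over 97 members with a mean of at least 1 CPM, the median SD of log2(CPM + 0.5) over 5 libraries was 0.30 for wild type, 0.23 for ACP7 OE and 0.53 for ACP7-7A OE. Over all 12032 tested genes of that level it was 0.14, 0.14 and 0.17. The 19 members averaging at least 400 CPM did not share the larger spread in ACP7 OE. Their SDs there ran from 0.063 (col-178) to 0.129 (col-140), all below the 0.14 of all genes. An SD above 1 was found in ACP7-7A OE for 27 of the 97 members (27.8%) and for 1.14% of all such genes, and for no member in the other groups.

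**Figure D2:**
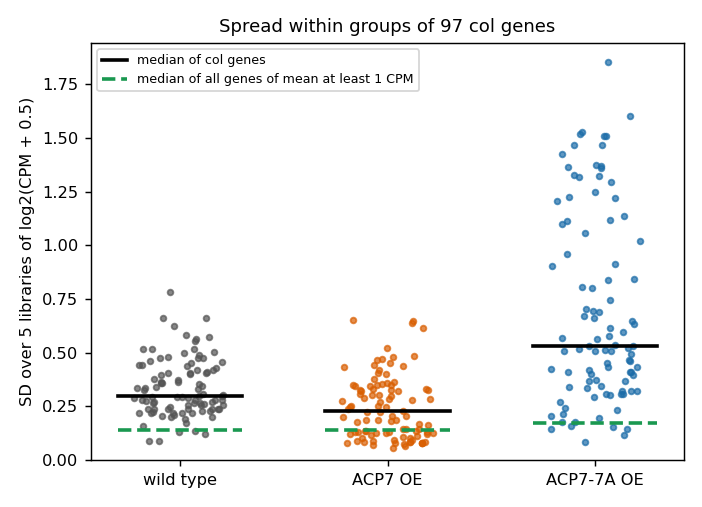
SD over the 5 libraries of a group of log2(CPM + 0.5), a point for each of 97 members with a mean of at least 1 CPM. Solid lines mark the member median (0.30, 0.23 and 0.53) and dashed lines the median of all 12032 genes of that level (0.14, 0.14 and 0.17).

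This spread had a common pattern. In ACP7-7A OE, libraries 1 and 2 held the 2 lowest of the 5 values for 74 of the 97 members (76.3%), and for 21.9% of all genes of that level. In wild type, library 5 was the lowest for 81 of 97 members (83.5%), and for 34.9% of all such genes. The clearest cases were members of middle level. col-129 (chromosome IV, 12108734 to 12110439) had 38.9 and 34.7 CPM in ACP7-7A OE libraries 1 and 2, and 247, 255 and 269 CPM in libraries 3 to 5. Its wild-type values were 214, 225, 261, 222 and 107 CPM, and its ACP7 OE values 215, 186, 192, 228 and 188 CPM. col-139 and col-81 had 31.4 and 34.1 CPM and 24.9 and 23.2 CPM in those libraries, and were likewise lower in wild-type library 5 than in the rest of wild type. These members were singled out after their values were seen.

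A few members went the other way or hardly varied. col-95 (chromosome III, 11703994 to 11705091, plus strand) had 488 and 552 CPM in ACP7-7A OE libraries 1 and 2 against 264, 278 and 280 CPM in libraries 3 to 5, and 301 CPM in wild-type library 5 against 239 to 271 CPM in the other wild-type libraries. In ACP7-7A OE, col-95, col-74, col-121 and col-165 were the 4 members whose 2 highest values were in libraries 1 and 2, a pattern held by 32.5% of all genes of that level. col-101, among the abundant members at 960 to 1228 CPM over all libraries, had a highest-to-lowest ratio of 1.28. col-95 and col-101 were also singled out after their values were seen.

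**Figure D3:**
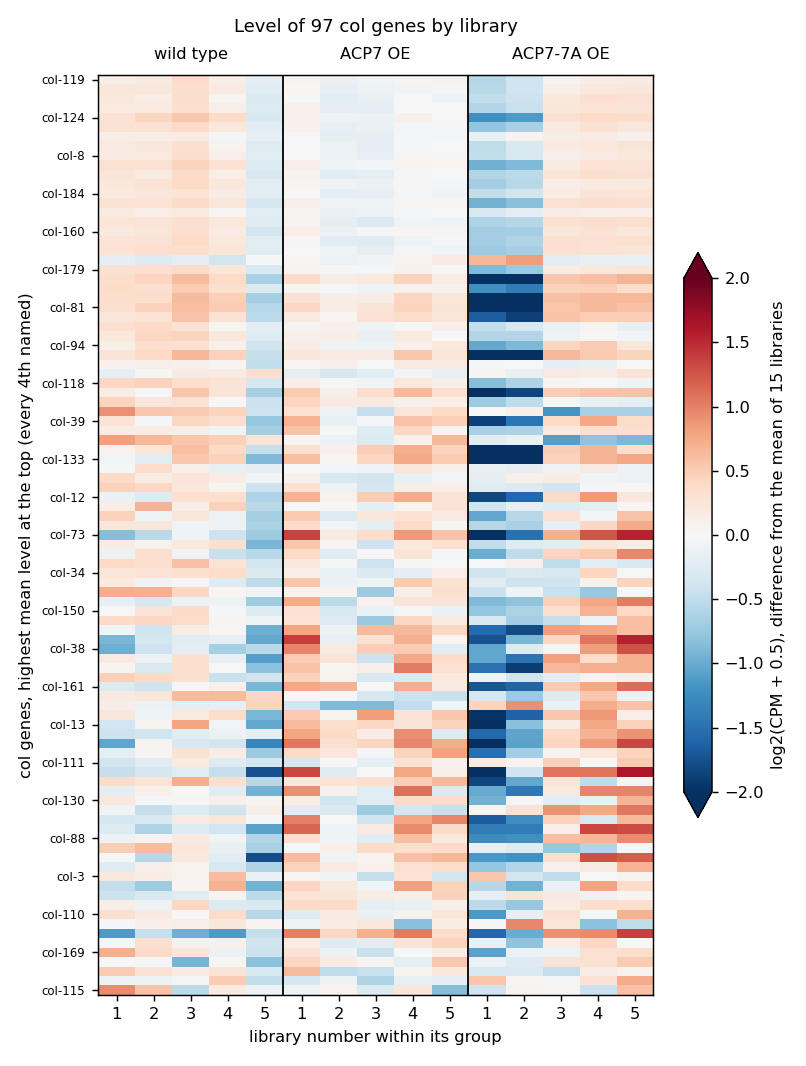
Level of 97 members (rows, highest mean at the top) in 15 libraries (columns), as log2(CPM + 0.5) minus the member's mean over the 15 libraries. ACP7-7A OE libraries 1 and 2 are low for most members, darkest for members such as col-81, and a single row in the upper part, col-95, is high there.

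Sums of marker genes for other cells were set beside these libraries. A list of 29 sperm genes summed to 83.8 CPM in each of ACP7-7A OE libraries 1 and 2 and to 312, 307 and 315 CPM in libraries 3 to 5, against 145 to 209 CPM in the wild-type libraries and 282 to 429 CPM in the ACP7 OE libraries. A list of 13 body wall muscle genes summed to 3765 and 4396 CPM in those 2 libraries and 6386 to 6757 CPM in the rest of the group, with 4016 CPM in wild-type library 5 and 5430 to 5766 CPM in the other wild-type libraries. A list of 17 oocyte and germline genes ran the other way, at 14295 and 15300 CPM against 12253 to 12824 CPM. No gene of these lists was at 0 in all libraries. For 9 genes of the epidermis, the source tissue of the cuticle, the sum was 256 and 270 CPM in ACP7-7A OE libraries 1 and 2. It was 274, 290 and 266 CPM in libraries 3 to 5, 263 to 318 CPM in the wild-type libraries and 253 to 277 CPM in the ACP7 OE libraries. The part of any of these in the collagen values was not tested. Male tail genes summed to 0.428 to 3.07 CPM.

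In ACP7 OE against wild type, the question is whether active ACP7 secreted from the intestine altered cuticle collagen transcripts. No member passed. Of 119 tested, 0 rose and 0 fell (edgeR quasi-likelihood test on all 15 libraries, Benjamini-Hochberg over 15725 genes, adjusted p under 0.05), where 2.68% of all genes were called. At an unadjusted p under 0.05 there were 11 members (9.24%), 5 higher and 6 lower, against 16.5% of all genes, and DESeq2 called 1 member, col-153, lower (4.6% of all genes called). The median log2 fold change of the members was -0.03, with quartiles of -0.22 and 0.43, and that of all genes was 0.00.

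The count changed with the libraries fitted. Fitted on the 10 libraries of these groups alone, without ACP7-7A OE, 13 of 118 members passed, 10 higher and 3 lower, where 7.77% of all genes were called. Without ACP7-7A OE libraries 1 and 2, 17 of 126 passed, 10 higher and 7 lower (8.74% of all genes), and the 10 higher and 3 of the lower members were the same. Without those and wild-type library 5, 42 of 126 passed, 10 higher and 32 lower (15% of all genes), and all 19 members averaging at least 400 CPM were among the lower ones. These 3 libraries were picked with their low member levels known, and leaving out wild-type library 5 raises the wild-type level of most members and narrows its spread by construction, so the 32 lower calls are no independent support. In the fit on all libraries those 19 had log2 fold changes from -0.32 to -0.11, each below 0, with a median of -0.21, where 34.3% of the 367 genes of that level were below 0.

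The 10 members that were higher in the fit without ACP7-7A OE were col-17, col-73, col-175, col-38, col-49, col-161, col-138, col-162, col-95 and col-146, of which col-17, col-73 and col-175 met the rule for named genes, which for them ranks members of at least 1 CPM by the ratio of the highest to the lowest library and so uses their values (col-17, at 0 in 1 library, has no finite ratio and ranked first). The others were chosen after their values were seen. All but col-95 averaged between 1.33 and 6.98 CPM. All but col-95 also passed as higher in ACP7-7A OE against wild type when ACP7-7A OE libraries 1 and 2 were left out. Those libraries were picked with their low member levels known, and leaving them out raises the ACP7-7A OE level of most members by construction. col-17 (chromosome II, 4866723 to 4867574) had 0.183, 0.578, 0.263, 0.176 and 0.567 CPM in the wild-type libraries, 2.49, 1.48, 1.94, 2.55 and 1.4 CPM in the ACP7 OE libraries, and 0, 0.249, 2.32, 2.36 and 3.36 CPM in the ACP7-7A OE libraries. Wild type and ACP7 OE did not overlap, and ACP7-7A OE covered the range of both. Its log2 fold change in ACP7 OE was 2.48, with SE 0.83 and an edgeR adjusted p of 0.14 over all libraries, and SE 0.37 and an adjusted p of 0.00012 over these 10.

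col-73, in the same run on the chromosome, had 2.74, 3.54, 4.98, 3.88 and 3.06 CPM in the wild-type libraries and 14.4, 6.03, 7.02, 10 and 8.17 CPM in the ACP7 OE libraries. In ACP7-7A OE it had 0.413, 1.57, 9.02, 13.4 and 16.5 CPM, so that libraries of that group were both the lowest and the highest of all 15. The log2 fold change in ACP7 OE was 1.33 (edgeR adjusted p = 0.37, or 0.00053 over these 10 libraries). col-38 had 1.74, 2.79, 3.4, 2.27 and 2.51 CPM in the wild-type libraries and 8.17, 4.5, 5.66, 5.74 and 3.27 CPM in the ACP7 OE libraries, where a single pair of values overlapped (log2 change 1.11, edgeR adjusted p = 0.16, or 0.0029). Its ACP7-7A OE values were 1.63, 3.17, 4, 7.36 and 10.1 CPM. col-175 had 0.822, 2.31, 1.7, 1.61 and 0.592 CPM in the wild-type libraries and 5.16, 2.86, 3.14, 4.8 and 4.05 CPM in the ACP7 OE libraries, without overlap (log2 change 1.51, edgeR adjusted p = 0.29, or 0.0026). Its ACP7-7A OE values were 0.138, 0.787, 3.14, 4.41 and 6.33 CPM. col-95, the abundant member of the set, stood at 268 ± 22.4 and 313 ± 24.4 CPM (log2 change 0.23, edgeR adjusted p = 0.62, or 0.025).

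The wild-type and ACP7 OE values did not overlap for 7 members, 6 higher (5.04% of 119, with 4.39% of all genes) and 1 lower (0.84%, with 2.33%). The lower one was col-153, which had 4.29, 4.48, 6.11, 6.07 and 5.13 CPM in the wild-type libraries and 3.73, 3.78, 2.91, 2.66 and 2.6 CPM in the ACP7 OE libraries (log2 change -0.73, SE 0.22, edgeR adjusted p = 0.076). Its adjusted p was 0.011 over the 10 libraries and 0.035 in DESeq2. col-135, with 660 codons, stood at 19.3 to 23.9 CPM in the ACP7 OE libraries and 21.6 to 31.6 CPM in the wild-type libraries (log2 change -0.31, SE 0.10, adjusted p = 0.091, edgeR).

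**Figure D4:**
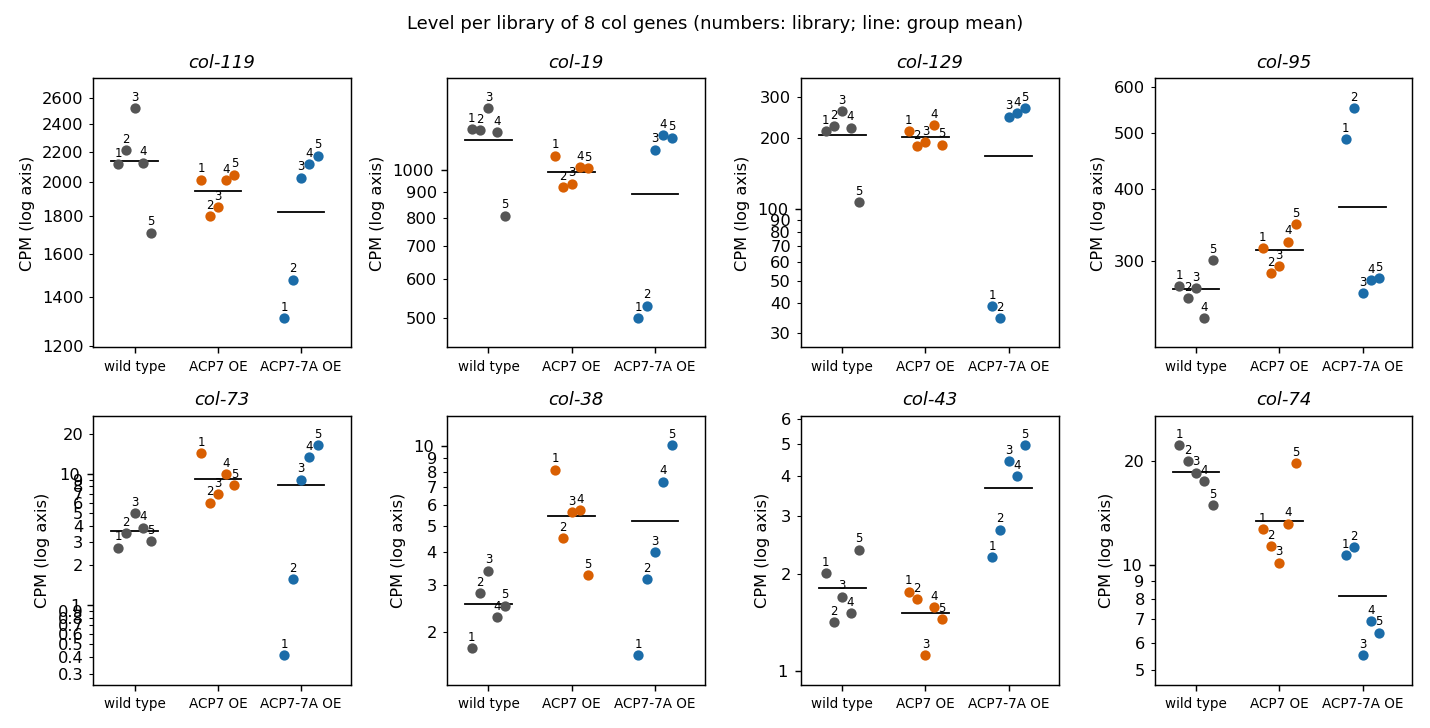
Level per library (CPM, log axes that differ between panels) of 8 members, with library numbers and a line at each group mean. col-119, col-19 and col-129 are low and col-95 is high in ACP7-7A OE libraries 1 and 2. col-73 and col-38 are higher than in wild type in most ACP7 OE libraries and in ACP7-7A OE libraries 3 to 5. col-43 is highest in ACP7-7A OE libraries 3 to 5 and col-74 is lowest there.

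In ACP7-7A OE against wild type, 4 of 119 members passed (3.36%), where 6.86% of all genes were called. The 1 that rose was col-43 (2.66% of all genes rose), and the 3 that fell were col-74, col-166 and col-65 (4.2% of all genes fell). At an unadjusted p under 0.05 there were 23 members, 8 higher and 15 lower (19.3%, against 24% of all genes). The median log2 fold change of the members was -0.13 and that of all genes 0.00, and 80 of the 119 values were below 0. Of the 19 members averaging at least 400 CPM, 18 were below 0, with a median of -0.19, where 35.7% of the 367 genes of that level were below 0. This is near their median of -0.21 in ACP7 OE, and both comparisons share the wild-type libraries. Between the constructs their median was -0.04, against -0.05 for all genes of that level. Without ACP7-7A OE libraries 1 and 2 the member median was 0.13 and 19 of 126 passed, 16 higher and 3 lower (5.88% of all genes). Without those and wild-type library 5, 26 of 126 passed, 16 higher and 10 lower (10.7% of all genes). These libraries were picked with their low member levels known. Leaving out ACP7-7A OE libraries 1 and 2 raises the ACP7-7A OE level of most members by construction. Leaving out wild-type library 5 does the same for the wild-type level. DESeq2 called 8 of 119, 1 higher and 7 lower (6.72%, against 11% of all genes). Without wild-type library 5, 13 of 124 passed, 1 higher and 12 lower (14.1% of all genes), and without wild-type library 1, 2 or 3 the count was 2, 1 and 2, where the share of all genes called also fell, to 3.15%, 2.81% and 2.52%.

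col-43 (chromosome V, 8049703 to 8050911, minus strand) had 2.01, 1.42, 1.7, 1.51 and 2.37 CPM in the wild-type libraries, 1.76, 1.67, 1.12, 1.58 and 1.45 CPM in the ACP7 OE libraries, and 2.25, 2.73, 4.43, 4 and 4.97 CPM in the ACP7-7A OE libraries. The ACP7-7A OE values lay above those of ACP7 OE throughout and, with library 1 as the exception, above all wild-type values. It rose against wild type by a log2 fold change of 1.03 (SE 0.24, edgeR adjusted p = 0.014), and this call was lost without wild-type library 2 (adjusted p = 0.052). It was lower with ACP7 OE than with its inactive form (log2 change -1.28, SE 0.24, adjusted p = 0.0013), a call kept whichever library was left out (adjusted p from 0.00037 to 0.0073).

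col-74 (chromosome II, 5830374 to 5832022, plus strand) had 22.2, 20, 18.5, 17.5 and 14.9 CPM in the wild-type libraries, 12.7, 11.4, 10.2, 13.2 and 19.7 CPM in the ACP7 OE libraries, and 10.7, 11.3, 5.51, 6.91 and 6.41 CPM in the ACP7-7A OE libraries. Wild type and ACP7-7A OE did not overlap, a lower-without-overlap pattern shared by 2.92% of all genes and held among members by col-74 alone. It fell in ACP7-7A OE by 1.19 on the log2 scale (SE 0.20, edgeR adjusted p = 0.0029), and the call held with each library left out in turn (adjusted p from 0.00056 to 0.0098). Its level was higher with ACP7 OE than with its inactive form (log2 change 0.72, SE 0.20, adjusted p = 0.034). That call was lost without ACP7 OE library 4 or 5 or ACP7-7A OE library 3, 4 or 5 (adjusted p up to 0.078), and in the fit on those 10 libraries alone (0.060). The exons of col-74 overlap those of gtap-1 on the other strand, at 59.6 ± 3.29 CPM in the wild-type libraries and 70.2 ± 7.12 CPM in the ACP7-7A OE libraries, and without strand their shared reads cannot be told apart. In the same comparison with wild type, values higher without overlap were held by 1 member, col-173, and 2.12% of all genes.

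col-166 (chromosome X, 6280016 to 6280921) fell from 55.1 ± 8.76 to 42 ± 5.96 CPM (SD, n = 5 each; log2 fold change -0.39, SE 0.10, edgeR adjusted p = 0.026), with overlap between 42.6 and 50.2 CPM. The call was lost without wild-type library 1, 2 or 3 or ACP7-7A OE library 2 (adjusted p up to 0.083), and without both ACP7-7A OE libraries 1 and 2 (log2 change -0.27, adjusted p = 0.12). It was also lost in the fit on the 10 libraries compared (adjusted p = 0.074). col-65 (chromosome I, 11489158 to 11490578) had 9.02, 8.91, 7.16, 5.39 and 4.98 CPM in the wild-type libraries and 3.76, 4.97, 3.7, 2.91 and 5.26 CPM in the ACP7-7A OE libraries (log2 change -0.78, SE 0.22, adjusted p = 0.032, edgeR). Its call was lost without wild-type library 1, 2 or 3 or ACP7-7A OE library 1, 3 or 4 (adjusted p up to 0.094), and without both ACP7-7A OE libraries 1 and 2 (log2 change -0.84, adjusted p = 0.052).

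**Figure D5:**
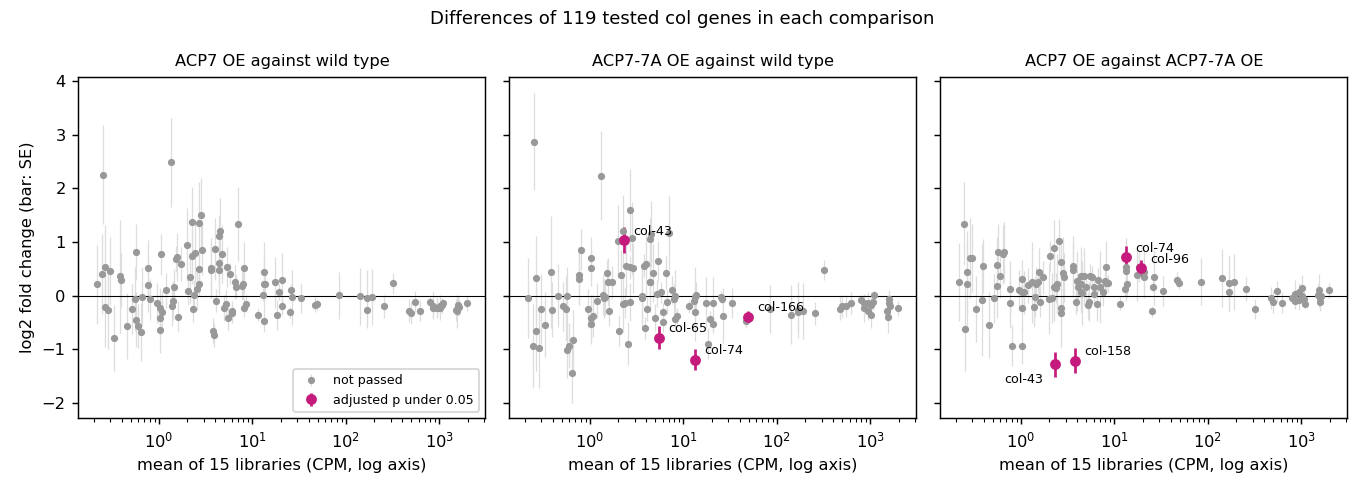
Log2 fold change with SE of the 119 tested members against their mean level (CPM, log axis) in the 3 comparisons. No member passed in ACP7 OE against wild type, and the 4 members that passed in each of the other comparisons averaged between 1 and 400 CPM.

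Between the constructs, which asks about the phosphatase activity, 4 of 119 members passed (3.36%), where 8.56% of all genes were called. In ACP7 OE relative to ACP7-7A OE, col-74 and col-96 were higher and col-43 and col-158 lower (4.79% and 3.76% of all genes). The constructs also differed in RNA dose, with F21A3.11 higher in every ACP7-7A OE library than in any ACP7 OE library, so activity and dose cannot be told apart. The member median was 0.16, and became -0.21 without ACP7-7A OE libraries 1 and 2, when 12 of 126 members passed, 1 higher and 11 lower (9.91% of all genes). Without those and wild-type library 5, 37 of 126 passed, 6 higher and 31 lower (13.6% of all genes). Leaving out ACP7-7A OE libraries 1 and 2 raises the ACP7-7A OE level of most members by construction. Wild-type library 5 is in neither construct group, and leaving it out as well narrowed the spread of the shared fit. For col-103 the log2 change was -0.44 in both fits, while the SE went from 0.10 to 0.05. Without ACP7 OE library 4 or 5 the count was 2 each, where 5.55% and 5.86% of all genes were called.

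col-158 (chromosome V, 11829582 to 11831219, plus strand) had 2.63, 1.69, 1.69, 2.36 and 3.3 CPM in the ACP7 OE libraries, 4.98, 7.08, 3.19, 6.22 and 5.5 CPM in the ACP7-7A OE libraries, and 3.93, 3.23, 3.07, 3.1 and 5 CPM in the wild-type libraries. The wild-type mean of 3.67 CPM lay between the means of 2.33 and 5.39 CPM of the constructs, and all but 1 of the ACP7-7A OE values lay above every ACP7 OE value. The log2 fold change between the constructs was -1.21 (SE 0.23, edgeR adjusted p = 0.0013), and the call held with each library left out (adjusted p from 0.00037 to 0.0069). Its exons overlap those of nphp-4 on the other strand, at 0.969 ± 0.328 and 1.16 ± 0.238 CPM. col-96 (chromosome III, 11705652 to 11706765, minus strand), the neighbour of col-95, had 25.7, 21.5, 21.4, 20.2 and 20.8 CPM in the ACP7 OE libraries and 11.3, 13.1, 18.8, 17.2 and 16.7 CPM in the ACP7-7A OE libraries, without overlap. Its log2 fold change was 0.51 (SE 0.15, edgeR adjusted p = 0.034), and the call was lost without any of 9 libraries (wild-type libraries 2 and 4, ACP7 OE libraries 1 to 5, and ACP7-7A OE libraries 1 and 2, adjusted p up to 0.085) and without both ACP7-7A OE libraries 1 and 2 (log2 change 0.31, adjusted p = 0.19). Between the constructs, higher without overlap held for 2 members, col-96 and col-113 (1.68%, against 4.21% of all genes), and lower without overlap for 3, col-43, col-53 and col-83 (2.52%, against 2.87%). col-113, col-173, col-53 and col-83 were named after their values were seen.

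For the gene lists that follow, the shares over all genes serve as the scale. In ACP7 OE against wild type 1.48% of all genes rose and 1.2% fell, and in ACP7-7A OE 2.66% rose and 4.2% fell. With ACP7 OE relative to its inactive form 4.79% were higher and 3.76% lower. Among 20 cuticle collagens with other names, none passed in ACP7 OE against wild type, 3 fell in ACP7-7A OE and 1 was higher with ACP7 OE than with its inactive form. Those that fell were the furrow collagens dpy-7 and dpy-2 (log2 changes -0.77 and -0.66, edgeR adjusted p = 0.0035 and 0.018) and sqt-3, whose loss shortens the body (-0.59, adjusted p = 0.034). dpy-7 was the one higher between the constructs (0.65, adjusted p = 0.0064). The list's median log2 fold changes were 0.57, 0.47 and 0.17 in the 3 comparisons, of the opposite sign to the genes that fell, and rol-6, known for mutations that make worms roll, stood at 0.86 ± 0.644 CPM in the ACP7 OE libraries and 0.166 ± 0.177 CPM in the wild-type libraries (2.37, adjusted p = 0.17).

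Of 13 enzymes and partners that modify and join collagens, none passed in ACP7 OE against wild type, where the cross-linking dual oxidase bli-3 had a log2 fold change of -0.32 (edgeR adjusted p = 0.11) and the prolyl hydroxylase subunit dpy-18 of -0.28 (adjusted p = 0.13). The disulfide isomerase pdi-1 rose in ACP7-7A OE from 387 ± 15.2 to 441 ± 22.6 CPM (0.19, adjusted p = 0.035). cyn-9, a cyclophilin needed for collagen folding, was higher with ACP7 OE than with its inactive form (0.33, adjusted p = 0.028). Of 12 regulators of epidermal genes, grh-1, a Grainyhead factor, fell in both ACP7 OE (-0.49, adjusted p = 0.046) and ACP7-7A OE (-0.68, adjusted p = 0.0042), comparisons that share the wild-type libraries. myrf-1, a molting-cycle regulator, was lower with ACP7 OE than with its inactive form (-0.30, adjusted p = 0.0073), and elt-3, lin-29 and nhr-23 passed in none.

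Of 14 molting and apical matrix genes, none passed in ACP7 OE, 5 fell in ACP7-7A OE, and nas-37, a protease that opens the old cuticle, was higher with ACP7 OE than with its inactive form (log2 change 0.56, edgeR adjusted p = 0.0010). mlt-8, mlt-11, nas-37 and lpr-3 were among the 5, at -0.51, -0.43, -0.39 and -0.49 (adjusted p = 0.014, 0.019, 0.026 and 0.034). The type IV collagens of basement membranes, made mainly by muscle and gonad cells, did not pass against wild type. let-2 and emb-9 were lower with ACP7 OE than with its inactive form (-0.66 and -0.58, adjusted p = 0.016 and 0.033). Of 9 epidermal markers none passed in ACP7 OE against wild type, and dpy-7, which is also counted above, alone passed in the other comparisons. Of 27 sperm genes tested, 2 rose with ACP7 OE and 1 with the inactive form against wild type, and between the constructs 1 was higher and 1 lower. Of 17 oocyte and germline genes and 10 early embryo genes, 9 and 3 rose in ACP7-7A OE, none passed in ACP7 OE, and 3 and 1 were lower between the constructs. Of 12 intestinal genes, 1 rose and 3 fell in ACP7-7A OE, and 4 were higher with ACP7 OE than with its inactive form. Of 13 body wall muscle genes 1 was lower with ACP7 OE than with its inactive form, of 13 neuronal genes 1 fell in ACP7 OE against wild type, and of 4 male tail genes none passed. The part of these cell types in the collagen values was not tested.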

How the data were processed

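Poly(A) RNA was sequenced from 15 libraries, 5 in each of 3 groups set by the labels. The deposited values are raw counts per gene, made by the authors with featureCounts 2.0.6, per the file headers, after Trim Galore and STAR on WBcel235, per the submitters' processing notes. For strand, multi-mapping and pair settings the sources used here give nothing. Among small counts, 81.3% to 86.1% in each library were even, so mates of a pair may have been counted separately, which was not tested. With every count halved and rounded down, 0, 4 and 4 members passed in the 3 comparisons. Of 46929 rows, 46925 matched RefSeq genes of WBcel235. Counts of 39050495 to 58077047 per library were fitted with edgeR 4.0.16 in R 4.3.3 (filterByExpr, TMM, robust quasi-likelihood F test, all libraries in 1 fit), with Benjamini-Hochberg adjustment over 15725 genes and a threshold of 0.05. CPM uses TMM-scaled totals. The common biological coefficient of variation was 0.21. Alternatives were DESeq2 1.42.0, other scaling, filter, block and library choices, and the steps were tested on simulated data.

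Members and gene lists were chosen with earlier results of these data known. Named members are those past the threshold (up to 10 per comparison), the 10 highest per length, those with a known role, and, among members averaging at least 1 CPM, the 5 with the largest ratio of highest to lowest library. A part of the rule on near-identical proteins was not applied, and protein and promoter sequences were not used here. In the other lists up to 4 genes past the threshold are named, or 2 where none passed. Exons of 37 members, 28 of them tested, overlap another counted gene, so their reads are uncertain.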

Additional observations from a re-analysis of the deposited data

Results flagged for a closer look

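Sets of 5 libraries of 1 gene in 1 group numbered 93, most of them of named members. Of these, 7 held a library whose gap to the nearest other exceeded Dixon's 95% critical value of 0.71 of the whole range. Chance gives about 1 in 20 for independent sets. These sets share libraries, and some members, col-63 among them, were named for a large ratio of highest to lowest library, so that rate is no test here. Wild-type library 5 was low for 3 members. col-19 had 807 CPM there against 1192 to 1333 CPM in the other wild-type libraries, col-142 had 129 against 197 to 225 CPM, and col-63 had 0.247 against 1.31 to 1.66 CPM. The sperm and body wall muscle sums were also lowest of wild type in that library, at 145 and 4016 CPM, and their part in these values was not tested. col-96 had 25.7 CPM in ACP7 OE library 1 against 20.2 to 21.5 CPM in the rest of its group. col-144 had 14.6 CPM in ACP7-7A OE library 4 against 11.2 to 12.1 CPM. col-41, too low to be tested for differences, had 0.465 CPM in ACP7 OE library 3 against 0.0428 to 0.143 CPM, and 0.809 CPM in ACP7-7A OE library 5 against 0.0414 to 0.215 CPM.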

How the results depend on the processing

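The number of members past the threshold was 0 in ACP7 OE against wild type, 4 in ACP7-7A OE against wild type and 4 between the constructs (2.68%, 6.86% and 8.56% of all genes). Without ACP7-7A OE libraries 1 and 2 these were 17, 19 and 12 (8.74%, 5.88% and 9.91% of all genes). Without those and wild-type library 5 the counts were 42, 26 and 37 (15%, 10.7% and 13.6% of all genes). Those libraries were picked with their low member levels known, and fewer libraries then set the spread. Against wild type DESeq2 gave 1 for ACP7 OE and 8 for the inactive form (4.6% and 11% of all genes). The fit on the 10 libraries compared gave 13 in ACP7 OE (7.77% of all genes). At an adjusted p under 0.01 ACP7-7A OE against wild type gave 1 and the constructs 2, and without the filter on low counts the constructs gave 2. The cause of these differences was not tested. Leaving out each library in turn gave counts of 0 to 2, 1 to 13 and 2 to 5, and member medians of -0.18 to 0.02, -0.27 to -0.03 and 0.01 to 0.31. The share of all genes called moved too. In ACP7-7A OE against wild type it was 2.52% without wild-type library 3 and 14.1% without wild-type library 5. Over 10 named results, 230 alternative values kept the call in 186 cases, lost it in 34 and gained it in 10, and turned direction in 0.

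With the replicate number as a block the counts were 0, 3 and 3 (1.84%, 4.03% and 6.58% of all genes, against 2.68%, 6.86% and 8.56% without it), col-166 and col-96 no longer passed (adjusted p = 0.064 and 0.068), and the member medians were -0.03, -0.20 and 0.21. Same-numbered libraries did not deviate together (correlations from -0.154 to 0.121). The labels do not say whether they were handled together, and these correlations cannot settle it.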
